A study of Mus musculus with 5 samples.

Results

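The genes described here are those of the acetylcholine signalling pathway in mouse small intestine: the receptors for acetylcholine, the enzymes and transporters that make and remove it, and the G proteins, effector enzymes, channels and regulators to which its receptors couple. They were chosen by symbol from a list of 44 genes, and 37 of the 44 had a row in the deposited table of 19198 genes. Chrna5, Chrna7, Chrne, Slc18a3, Gnaz, Kcnj3 and Kcnj5 had no row in the table used here, so they were not analysed. Of the 5 mice, 2 were Cre-positive, carrying Math1Cre*PR together with floxed Chrm4 alleles (mAchR4 fl/fl), and 3 were their Cre-negative mAchR4 fl/fl littermates. All 5 mice were given RU486 by gavage at 10 mg/kg per day over 4 days, so the controls carried the floxed alleles and the drug as well. Cre*PR is a Cre recombinase that RU486 activates, and Math1 (gene symbol Atoh1) marks secretory precursors of the intestinal epithelium. Total RNA of whole small intestine was sequenced after removal of ribosomal RNA, and markers of muscle, nerve and immune cells were detected beside those of the epithelium. Age and the stretch of intestine are not given in the labels. The question the design poses is what differs in the intestine when the M4 receptor gene is targeted in Math1-expressing cells.

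Acetylcholine acts through muscarinic receptors, which are G protein-coupled, and through nicotinic receptors, which are ion channels. M2 and M4 (Chrm2, Chrm4) couple to Gi proteins, which inhibit some adenylyl cyclases. M1 and M3 (Chrm1, Chrm3) couple to Gq proteins, which activate phospholipase C beta and release calcium through inositol trisphosphate receptors. In the gut wall, enteric neurons release acetylcholine onto smooth muscle, which carries M2 and M3, and tuft cells of the epithelium make acetylcholine too.

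The targeted gene and the muscarinic gene with the most counts are shown by the 250 bases before their RefSeq start sites (build GRCm38.p6), because the knockout targets the first and the widest group gap among the muscarinic genes was in the second. Both genes lie on the plus strand, at chr2:91921939-91922188 and chr6:36387834-36388083. Capitals mark matches to the E-box CANNTG (a palindromic class, so both strands are covered), which basic helix-loop-helix factors such as Math1 can bind.
Chrm4: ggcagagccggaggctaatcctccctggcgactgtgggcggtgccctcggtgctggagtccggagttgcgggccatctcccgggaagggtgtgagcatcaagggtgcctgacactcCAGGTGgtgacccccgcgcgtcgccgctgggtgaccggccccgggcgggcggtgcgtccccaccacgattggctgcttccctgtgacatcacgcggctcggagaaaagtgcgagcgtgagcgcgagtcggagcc
Chrm2: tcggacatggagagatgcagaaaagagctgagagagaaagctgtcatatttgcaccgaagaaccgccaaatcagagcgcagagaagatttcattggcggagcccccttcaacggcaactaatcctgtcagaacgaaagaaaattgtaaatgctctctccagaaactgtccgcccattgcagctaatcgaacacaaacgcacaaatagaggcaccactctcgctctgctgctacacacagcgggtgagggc
The Chrm4 stretch held 1 match, 134 bases before the start, and the Chrm2 stretch held 0. Of 32851 RefSeq promoter windows of this length, 66.2% held at least 1 match, so a match is common, and it is not evidence of a site.

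Library totals ran from 4681119 to 6618204 estimated counts. Values are counts scaled to a common library size (CPM) after scaling by TMM factors, which allow for a few abundant genes taking reads from the rest. The Cre-negative mice are the controls, and values are listed in the order of library number, Cre-positive 1 and 2 and then Cre-negative 1, 2 and 3. Cre-positive 1 stood apart from the other 4 libraries by its lymphocyte genes. The CPM of the 7 lymphocyte markers used (Ptprc, Cd79a, Ms4a1, Ighm, Cd3e, Cd8a and Cd4) summed to 350.1 and 21.6 in the Cre-positive pair, against 25.2, 23.0 and 20.4 in the 3 controls. The 10 smooth muscle markers, Myh11 and Acta2 among them, summed to 1275 and 1545 CPM in the Cre-positive pair, against 3898, 1963 and 1516 CPM in the 3 controls. Fold changes put Cre-positive mice over the controls and come from edgeR's quasi-likelihood test fitted over the 14352 genes that passed a filter on low counts, with Benjamini-Hochberg adjustment at 0.05.

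Among the acetylcholine pathway genes no genotype difference passed the test over all genes. Chrm2, Rgs5, Adcy5 and Chrna3 had lower CPM in both Cre-positive libraries than in any Cre-negative library. The choline transporter gene Slc44a1 had higher CPM in both. These 5 also had an unadjusted edgeR p under 0.05, but Chrna3 passed the low-count filter through its Cre-negative libraries alone. Chrnb2, Gnao1 and Gnaq likewise lay lower without overlap, and Gnai3 higher, but with an unadjusted edgeR p above 0.05. For Chrnb2 and Gnaq the separation needed the TMM factors, as counts scaled by library size alone overlapped between the groups. Of the 37 genes, 30 passed the filter, and Chrm1, Chrnb1, Chrnb4, Chat, Adcy2, Adcy4 and Arrb2 did not. edgeR called 0 of the 30 higher and 0 lower, where it called 0.00% of all genes tested in each direction (adjusted p from 0.977 to 0.997). DESeq2 and limma-voom also called 0 of them, where over all genes DESeq2 called 12 higher and 7 lower and limma-voom called 0. At an unadjusted edgeR p under 0.05 there were 2 of the 30 on the higher side, against 1.60% of all genes, and 4 on the lower side, against 1.78%, or 6 in all, against 3.38%. CPM did not overlap between the groups for 9 of the 30, against 18.0% of all genes: 2 lay higher, against 7.89%, and 7 lay lower, against 10.2%. The log2 fold change was positive for 7 and negative for 23 of the 30, while 45.5% of all genes were positive. Their median was -0.21, and that of all genes was -0.04. These counts describe a list chosen with results of these data known, and no list test was made. In simulated counts of this design edgeR recovered 0 of 194 genes set to a 2-fold difference and 99 of 192 set to a 4-fold difference, with this depth and number of mice.

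**Figure D1:**
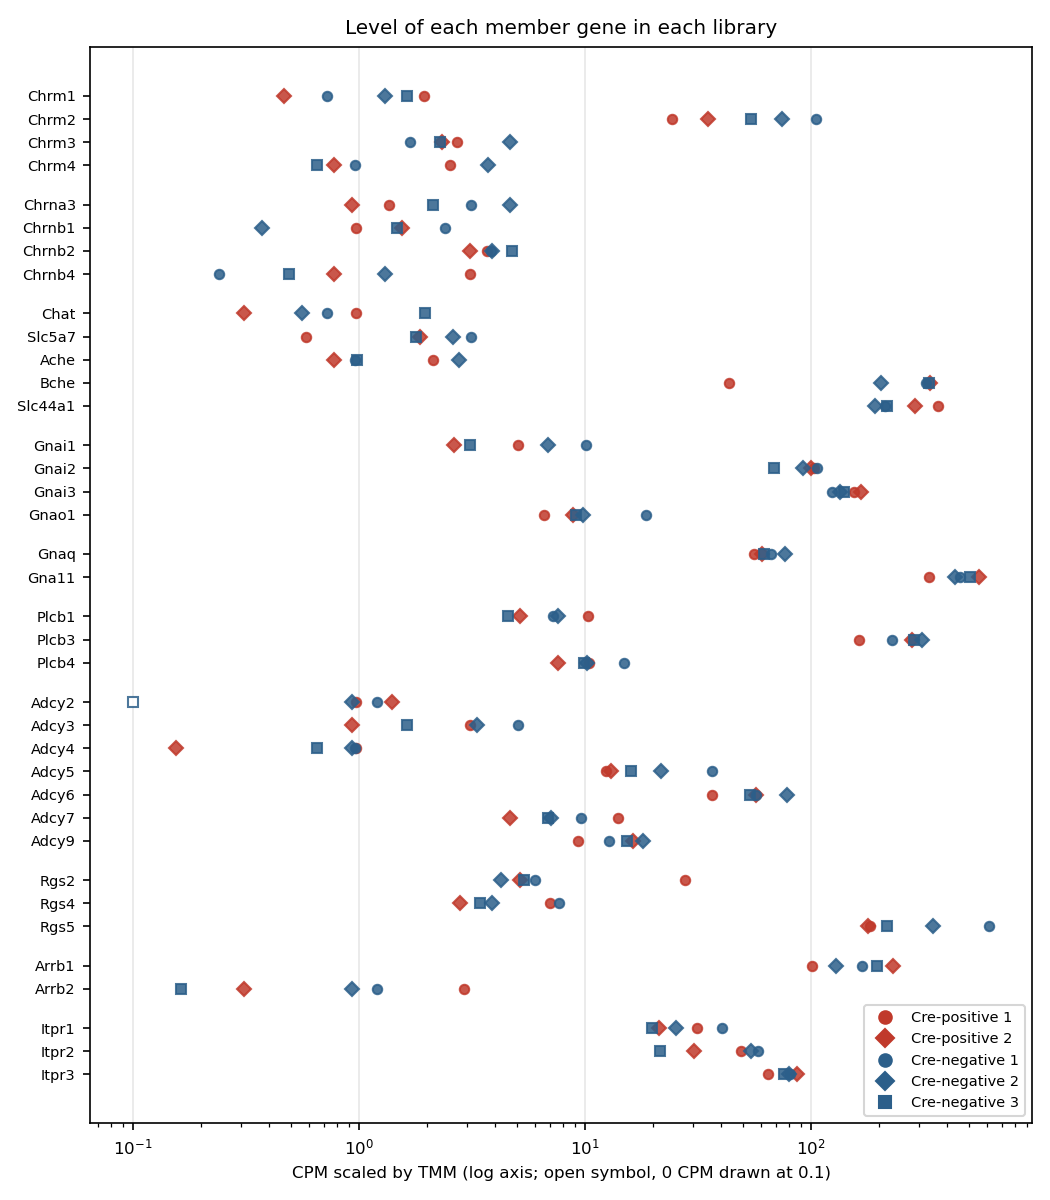
Level of each of the 37 genes with a row, in CPM scaled by TMM on a log axis, with 1 symbol per library (Cre-positive red, Cre-negative blue). Genes are ordered by role, receptors at the top, and Chrm2 stands far to the right of the other 3 muscarinic genes, from 24.2 to 105 CPM.

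Chrm4, the gene targeted by the floxed allele, was detected at low counts in every library and its groups overlapped. Its counts were 13 and 5 in the Cre-positive pair, against 4, 20 and 4 in the 3 controls. In CPM these were 2.52 and 0.777 in the Cre-positive libraries, against 0.958, 3.71 and 0.652 in the Cre-negative libraries. The exact Poisson 95% intervals, which cover counting error only, were 1.34 to 4.30 and 0.252 to 1.81 CPM in Cre-positive 1 and 2. They were 0.261 to 2.45, 2.26 to 5.72 and 0.178 to 1.67 CPM in the 3 controls. The highest library, Cre-negative 2, and the next, Cre-positive 1, had overlapping intervals although they carry different genotypes. The log2 fold change was -0.14 ± 0.91 (SE; edgeR adjusted p = 0.989). Dropping Cre-positive 1 gave -1.15 and dropping Cre-positive 2 gave 0.52, so its sign depended on single libraries. Without Cre-negative 2, the control with 20 counts, Chrm4 did not pass the filter and no estimate was made. The range over single mice is therefore incomplete. GENCODE places Chrm4 on chromosome 2 from 91927249 to 91928688 as a single exon block, 5.06 kb downstream of the RefSeq start used above. Which part is floxed is not given in the labels, and most cells of the sampled tissue lie outside the Math1 lineage, so these counts do not check the genotype labels.

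**Figure D2:**
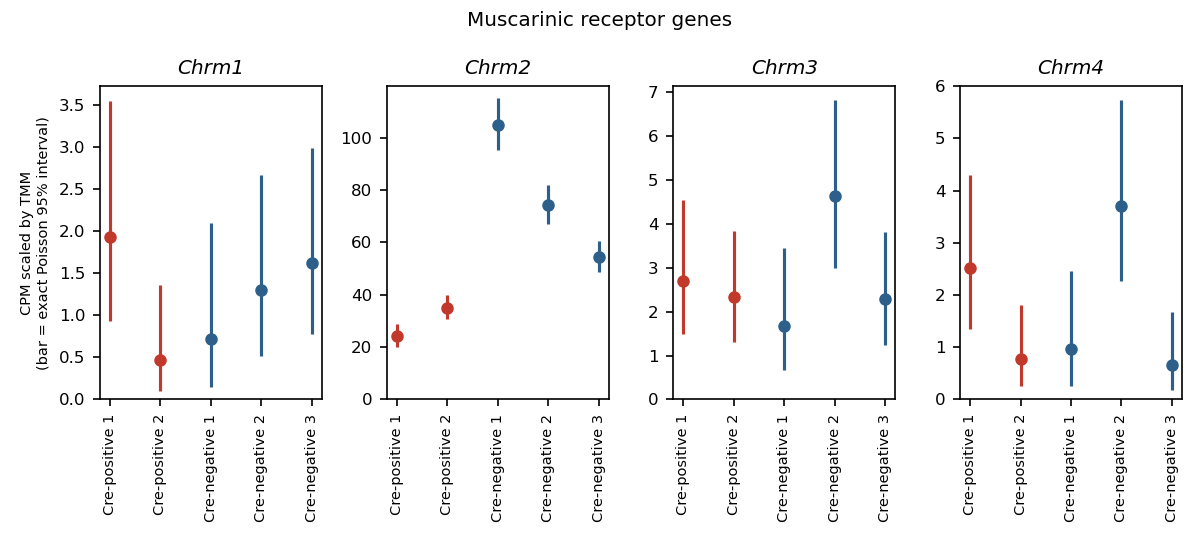
CPM scaled by TMM of the 4 muscarinic receptor genes in each library, with exact Poisson 95% intervals as bars, which cover counting error only; each panel has its own vertical axis. Both Cre-positive libraries lie below all 3 Cre-negative libraries for Chrm2, while the groups overlap for Chrm1, Chrm3 and Chrm4.

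Chrm2, the M2 receptor gene of gut smooth muscle, lay lower in the Cre-positive libraries. It had 24.2 and 35.0 CPM in the Cre-positive pair, against 105, 74.1 and 54.3 CPM in the 3 controls. The Cre-positive range ended below the lowest Cre-negative library, and the spread within the Cre-negative mice was itself about as wide as the gap between the group means of 29.6 ± 7.63 CPM (SD, n = 2) and 77.7 ± 25.4 CPM (SD, n = 3). Its log2 fold change of -1.39 ± 0.34 (SE) is a level 2.62-fold lower in Cre-positive mice, with an unadjusted p of 0.00438, the smallest of the 30 (edgeR adjusted p = 0.977). Leaving out each mouse in turn gave -1.64 to -1.09. The adjusted p was 0.214 with DESeq2 and 0.979 with limma-voom. Chrm2 lies on chromosome 6 (36388084 to 36528414, plus strand, 4 exon blocks), and an exon of the opposite-strand gene 9330158H04Rik overlaps it. That partner had 9 and 10 counts in the Cre-positive pair and 16, 14 and 8 in the 3 controls, few beside the 125 to 437 counts of Chrm2. The Gq-coupled receptor gene Chrm3 had 2.71 and 2.33 CPM in the Cre-positive pair, against 1.68, 4.63 and 2.28 CPM in the 3 controls (log2 fold change -0.20 ± 0.56; edgeR adjusted p = 0.981). Chrm1 had 10 and 3 counts in the Cre-positive libraries and 3, 7 and 10 in the Cre-negative libraries. Neither Chrm3 nor Chrm1 separated the groups.

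Since levels of different genes can be compared only per length, CPM was divided by the annotated exon length in kilobases. On this scale Chrm2 had 4.89 ± 1.26 CPM per kb in Cre-positive mice (SD, n = 2) and 12.8 ± 4.20 in Cre-negative mice (SD, n = 3). Chrm4, with 1.44 kb of annotated exon, had 1.14 ± 0.854 in Cre-positive and 1.23 ± 1.17 in Cre-negative mice, Chrm3 had 0.403 ± 0.0427 and 0.458 ± 0.250, and Chrm1 had 0.185 ± 0.160 and 0.187 ± 0.0710. The order Chrm2, Chrm4, Chrm3, Chrm1 held in each of the 5 libraries, although the ranges of Chrm4 and Chrm3 overlapped among Cre-negative mice and the last 3 genes rest on 3 to 25 counts in a library. Against GENCODE's Chrm4, which holds 1 exon block, the other 3 genes are annotated with 6.05 to 6.49 kb. A longer Chrm4 transcript would lower its value on this scale and could put it below Chrm3. In Cre-negative 3, for example, Chrm4 had 0.453 and Chrm3 had 0.365 CPM per kb.

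The nicotinic subunit genes, whose products assemble into acetylcholine-gated ion channels, were scarce. Chrna3, an alpha subunit of the receptors of autonomic and enteric ganglia, had 7 and 6 counts in the Cre-positive pair, against 13, 25 and 13 in the 3 controls. These are 1.35 and 0.933 CPM in Cre-positive mice, against 3.12, 4.63 and 2.12 CPM in Cre-negative mice. The groups did not overlap, and the log2 fold change was -1.52 ± 0.58 (unadjusted p = 0.0339; edgeR adjusted p = 0.977). Chrna3 passed the low-count filter through its Cre-negative libraries alone, where it was higher, so its p-value and its separation are not independent of that filter. Chrnb4, the beta subunit that pairs with it, lies 1591 bases from Chrna3 on chromosome 9 and had 16 and 5 counts in the Cre-positive pair, against 1, 7 and 3 in the 3 controls. Cre-positive 1 was its highest library and Cre-positive 2 lay within the Cre-negative range, so these neighbouring genes did not share an order of libraries. Chrnb2, another neuronal beta subunit, had 3.68 and 3.11 CPM in Cre-positive mice, against 3.83, 3.89 and 4.72 CPM in Cre-negative mice. The estimate was -0.30 ± 0.38 on the log2 scale. Its deposited counts were not whole in all 5 libraries and an exon of Adar overlaps it on the opposite strand, so its reads may be shared and the value is uncertain. Chrnb1, the beta subunit of the muscle receptor, had 5 and 10 counts in the Cre-positive pair and 10, 2 and 9 in the 3 controls, with no separation.

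Markers of enteric neurons were low in both Cre-positive libraries and in Cre-negative 3. Of the 11 neuron markers, 8 had a row (Tubb3, Elavl3 and Prph did not), and they summed to 14.1 and 16.5 CPM in the Cre-positive pair, against 33.3, 28.0 and 14.7 CPM in the 3 controls. All 5 neuron markers tested had a negative log2 fold change, with a median of -0.89, and 0 were called. Their part in the Chrna3 difference was not tested. In bulk tissue, fewer cells of a type and less RNA per cell cannot be told apart, and this holds for every gene described here.

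Of the genes of acetylcholine synthesis, transport and breakdown, Slc44a1 had the same order in every pairing of libraries from the 2 groups. Slc44a1, a choline transporter of the plasma and mitochondrial membranes that serves many cell types, had 366 and 289 CPM in the Cre-positive pair, against 213, 192 and 216 CPM in the 3 controls. Both Cre-positive libraries lay above the highest Cre-negative one, and the means were 328 ± 54.3 CPM (SD, n = 2) and 207 ± 12.9 CPM (SD, n = 3). Its log2 fold change was 0.66 ± 0.22, a level 1.58-fold higher in Cre-positive mice, with an unadjusted p of 0.0172 (edgeR adjusted p = 0.977). It stayed between 0.52 and 0.86 without each mouse in turn. Slc44a1 lies on chromosome 4 (53440413 to 53622478, plus strand, 19 exon blocks). The 7 goblet cell markers all had positive log2 fold changes, against 45.5% of all genes tested, though 0 were called. Of the 7, 6 lay higher without overlap, against 7.89% of all genes tested, and Spink4 overlapped between the groups. The 7 markers summed to 5079 and 2279 CPM in the Cre-positive pair, against 574, 993 and 1363 CPM in the 3 controls. Their part in the Slc44a1 difference was not tested. The related transporter genes Slc44a2, Slc44a3 and Slc44a4 overlapped between the groups, with log2 fold changes of -0.09 ± 0.57, 0.07 ± 0.34 and 0.66 ± 0.44.

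Bche, which encodes butyrylcholinesterase, an enzyme that hydrolyses acetylcholine and other choline esters, differed more between the 2 Cre-positive mice than between the groups. It had 43.2 and 337 CPM in the Cre-positive pair, against 322, 203 and 331 CPM in the 3 controls. Cre-positive 1 was far below the other 4 libraries, while Cre-positive 2 was the highest of the 5. Bche was 7.78-fold higher in Cre-positive 2 than in Cre-positive 1, and the 2 group means were 190 ± 207 CPM (SD, n = 2) and 285 ± 71.5 CPM (SD, n = 3). The log2 fold change of -0.59 ± 0.77 (edgeR adjusted p = 0.977) turned to 0.27 when Cre-positive 1 was dropped and to -2.68 when Cre-positive 2 was (edgeR adjusted p = 0.0612), and limma-voom gave -1.20. The 8 epithelium markers summed to 3326 and 5122 CPM in the Cre-positive pair, against 4348, 3523 and 4159 CPM in the 3 controls. Single markers went different ways: Fabp2 had 314 CPM in Cre-positive 1, its lowest library, while Krt8 with 521 CPM and Lgals4 with 279 CPM were highest there. The part of epithelial content in the Bche values was not tested.

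Ache, which encodes the synaptic acetylcholinesterase, had 11 and 5 counts in the Cre-positive pair, against 4, 15 and 6 in the 3 controls (log2 fold change -0.15 ± 0.77; edgeR adjusted p = 0.985). Per kilobase of exon, Bche reached 28.2 ± 30.8 CPM among Cre-positive and 42.3 ± 10.6 CPM among Cre-negative mice, and Ache reached 0.314 ± 0.207 and 0.340 ± 0.226 CPM. Bche was the more abundant esterase gene in all 5 libraries. Chat, the acetylcholine-synthesising enzyme gene of cholinergic neurons and tuft cells, had 5 and 2 counts in the Cre-positive pair, against 3, 3 and 12 in the 3 controls. Slc5a7, the neuronal high-affinity choline transporter gene, had 3 and 12 counts against 13, 14 and 11 in the same order of libraries. Its log2 fold change was -0.97 ± 0.65 (edgeR adjusted p = 0.977), -2.01 without Cre-positive 2 and -0.37 without Cre-positive 1. Tuft cell markers, of which 7 of 8 had a row, summed to 46.8 and 45.5 CPM in Cre-positive mice, against 73.3, 81.4 and 40.2 CPM in Cre-negative mice, so they overlapped as Chat did.

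The Gi alpha subunit genes, which transmit M2 and M4 signals, split by member. Gnai3 had 155 and 166 CPM in the Cre-positive pair, against 124, 134 and 140 CPM in the 3 controls. Its groups did not overlap, yet the gap was small, at a log2 fold change of 0.27 ± 0.19 (edgeR adjusted p = 0.977). Gnai2 had 103 and 99.8 CPM in Cre-positive mice, against 107, 91.9 and 68.4 CPM in Cre-negative mice, with overlap. Gnao1, the Go subunit gene of neurons, had 6.58 and 8.86 CPM in the Cre-positive pair, against 18.7, 9.82 and 9.12 CPM in the 3 controls. The Cre-positive values lay just below the lowest Cre-negative one, and a log2 fold change of -0.68 ± 0.41 shrank to -0.26 once Cre-negative 1 was left out. Gnai1 had 5.03 and 2.64 CPM in Cre-positive mice, against 10.1, 6.86 and 3.10 CPM in Cre-negative mice (log2 fold change -0.79 ± 0.58). Per kilobase, Gnai3 reached 49.1 ± 2.40 CPM among Cre-positive and 40.7 ± 2.45 CPM among Cre-negative mice, followed by Gnai2 at 26.9 ± 0.663 and 23.5 ± 5.10. Gnai1 (1.22 ± 0.539 and 2.13 ± 1.11) and Gnao1 (0.698 ± 0.146 and 1.14 ± 0.483) were far below both.

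The Gq branch, through which M1 and M3 act, showed no separation beyond a narrow one. Gna11, the Gq family subunit gene with the highest level per kilobase of the 37 genes in each group, had 331 and 552 CPM in the Cre-positive pair, against 455, 435 and 507 CPM in the 3 controls. The 2 Cre-positive libraries were the lowest and the highest of the 5. Gnaq had 55.7 and 60.8 CPM in Cre-positive mice, against 66.1, 76.9 and 62.1 CPM in Cre-negative mice (log2 fold change -0.23 ± 0.21; edgeR adjusted p = 0.977). Those ranges did not overlap, but the highest Cre-positive and the lowest Cre-negative library were close. Of the phospholipase C beta genes, Plcb3 had 164 and 281 CPM in Cre-positive mice, against 229, 308 and 284 CPM in Cre-negative mice. Its log2 fold change of -0.30 ± 0.29 was 0.07 without Cre-positive 1. Plcb1 and Plcb4 stayed between 4.56 and 14.9 CPM in every library and overlapped. The inositol trisphosphate receptor genes, whose products release calcium from the endoplasmic reticulum, overlapped as well, with log2 fold changes of -0.11 ± 0.36 for Itpr1, -0.17 ± 0.45 for Itpr2 and -0.06 ± 0.21 for Itpr3. Itpr3 was the steadiest of them in Cre-negative mice, at 78.9 ± 2.84 CPM (SD, n = 3), and had 75.5 ± 15.3 CPM in Cre-positive mice (SD, n = 2).

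**Figure D3:**
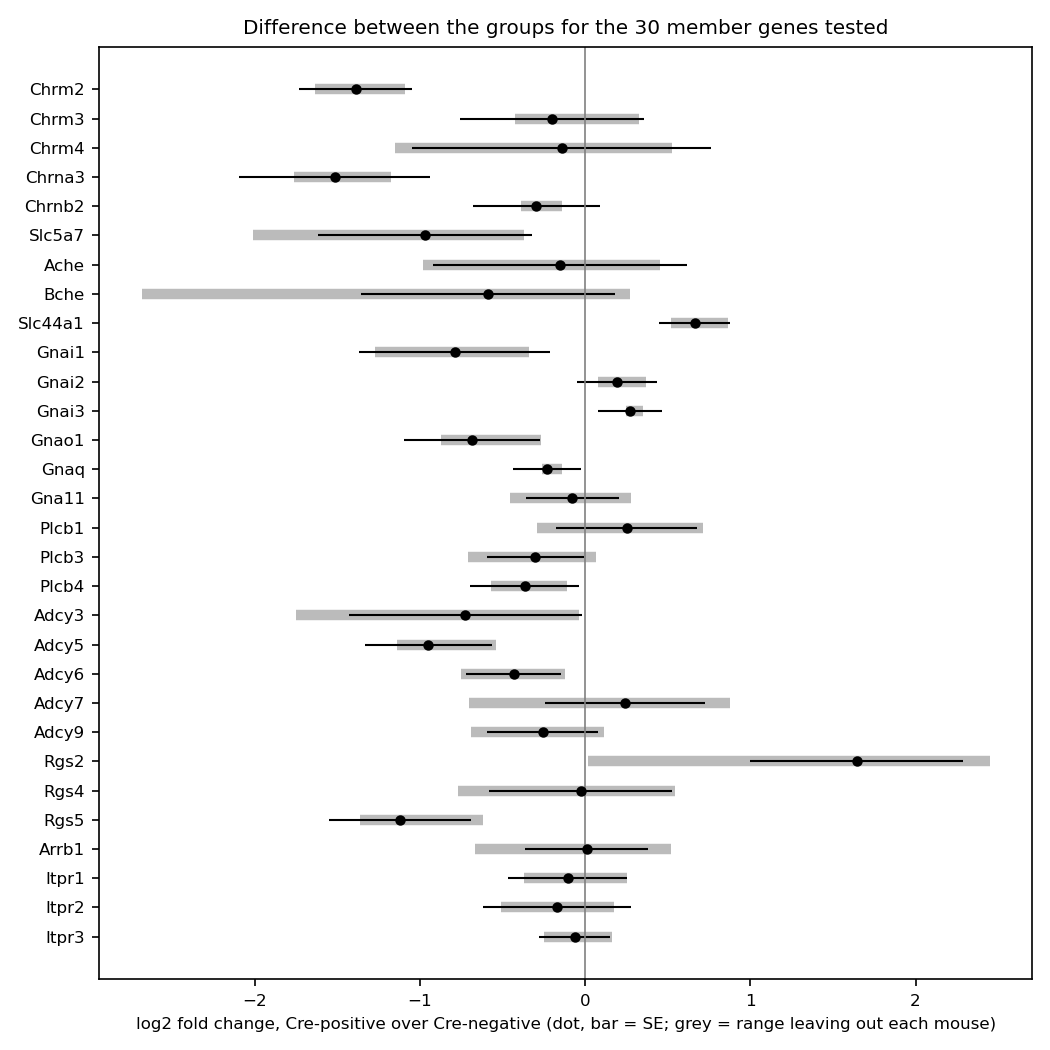
Log2 fold change (Cre-positive over Cre-negative) of the 30 genes tested, as a dot with its SE, in order of role; the grey band spans the estimates that leave out each mouse in turn. The bands of 16 of the 30 genes stay on 1 side of 0, Chrm2, Chrna3, Adcy5, Rgs5 and Slc44a1 among them. For genes whose groups do not overlap, this is all but fixed in advance. The bands of Bche and Rgs2 are the widest. Those of Chrm4 and Ache lack an estimate without Cre-negative 2, where neither gene passed the filter.

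Among the adenylyl cyclases, which make cyclic AMP and some of which Gi inhibits, Adcy5 lay lower in the Cre-positive libraries. Adcy5 had 12.4 and 13.1 CPM in the Cre-positive pair, against 36.4, 21.7 and 16.0 CPM in the 3 controls. The Cre-positive libraries were close together and below all Cre-negative ones, which ranged widely. Its log2 fold change was -0.95 ± 0.39 (unadjusted p = 0.0424; edgeR adjusted p = 0.977), and it was -0.54 without Cre-negative 1. Adcy6, the cyclase gene with the highest level per kilobase in each group (6.89 ± 2.12 CPM among Cre-positive and 9.31 ± 1.94 CPM among Cre-negative mice), had 36.6 and 56.9 CPM in Cre-positive mice, against 57.3, 78.2 and 53.9 CPM in Cre-negative mice. The groups overlapped (log2 fold change -0.43 ± 0.29). Adcy9 (-0.26 ± 0.34) and Adcy3 (-0.72 ± 0.70) also overlapped, and Adcy3 had counts that were not whole in all 5 libraries, with an exon of Cenpo on the opposite strand. Adcy7, a cyclase gene of blood cells, had 13.9 and 4.66 CPM in the Cre-positive pair, against 9.58, 7.04 and 6.84 CPM in the 3 controls, so the 2 Cre-positive libraries were the extremes. Adcy2 and Adcy4 had 0 to 9 counts in any library.

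RGS proteins speed the hydrolysis of GTP by Gi and Gq and so end the signal. Rgs5, a gene of vascular and visceral smooth muscle and pericytes, had 183 and 178 CPM in the Cre-positive pair, against 614, 348 and 217 CPM in the 3 controls. The 2 Cre-positive libraries were nearly equal, and the nearest Cre-negative library lay a little above them. The log2 fold change was -1.12 ± 0.43 (unadjusted p = 0.0356; edgeR adjusted p = 0.977), a level 2.17-fold lower in Cre-positive mice, and it was -0.62 without Cre-negative 1, the library with the most smooth muscle and pericyte RNA. The 5 pericyte markers summed to 39.3 and 49.9 CPM in Cre-positive mice, against 166, 75.8 and 56.7 CPM in Cre-negative mice, without overlap. Singly, only Abcc9 and Notch3 lay lower without overlap, as did 10.2% of all genes tested, while Pdgfrb, Cspg4 and Kcnj8 overlapped. Notch3 rests on few reads, with 1 and 3 counts in the Cre-positive pair, against 9, 10 and 9 in the 3 controls. Abcc9 made up most of the sum, with 23.2 and 31.7 CPM against 105, 53.0 and 41.1 CPM. The part of pericytes in the Rgs5 difference was not tested. Rgs2, which acts mainly on Gq, had 27.7 and 5.13 CPM in the Cre-positive pair, against 5.99, 4.26 and 5.38 CPM in the 3 controls. Only Cre-positive 1 was high. The log2 fold change of 1.64 ± 0.64 (unadjusted p = 0.0380; edgeR adjusted p = 0.977) came to 0.02 when Cre-positive 1 was dropped and to 2.45 when Cre-positive 2 was. Rgs4 had 6.97 and 2.80 CPM in Cre-positive mice, against 7.67, 3.89 and 3.42 CPM in Cre-negative mice, and did not separate the groups.

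The arrestins, which uncouple and internalise receptors, also split the Cre-positive pair. Arrb1 had 101 and 231 CPM in the Cre-positive pair, against 169, 129 and 196 CPM in the 3 controls. Arrb2, abundant in leukocytes, had 15 and 2 counts in the Cre-positive pair, against 5, 5 and 1 in the 3 controls. Comparing the Cre-positive libraries with each other, 6 of the 30 genes were over 2-fold higher in Cre-positive 1, against 10.8% of all genes tested, and 3 were over 2-fold lower, against 7.48%. The 6 were Chrm4, Ache, Adcy3, Adcy7, Rgs2 and Rgs4, and the 3 were Bche, Slc5a7 and Arrb1. These ratios are single-library values with no replicate check. Cre-positive 1 also held the 350.1 CPM of lymphocyte markers, and the part of those cells in Rgs2, Adcy7 and Arrb2 was not tested.

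**Figure D4:**
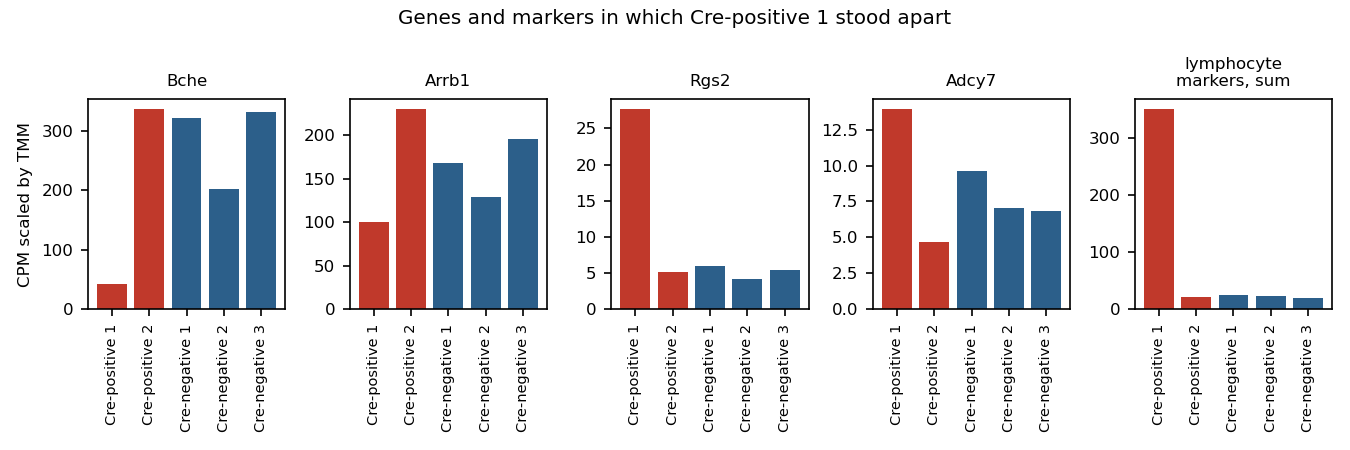
CPM scaled by TMM of Bche, Arrb1, Rgs2 and Adcy7 and the summed CPM of the 7 lymphocyte markers in each library (Cre-positive red, Cre-negative blue); each panel has its own vertical axis from 0. Cre-positive 1 is the lowest library for Bche and Arrb1 and the highest for Rgs2, Adcy7 and the lymphocyte markers.

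Smooth muscle content varied between libraries, and the lower genes were set against it. All 10 smooth muscle markers had a negative log2 fold change, with a median of -0.83, and 0 were called. Their sum overlapped between the groups, because Cre-positive 2 lay above Cre-negative 3. Per 1000 CPM of these markers, Chrm2 had 19.0 and 22.6 CPM in the Cre-positive pair, against 26.9, 37.8 and 35.8 CPM in the 3 controls. The groups therefore still did not overlap for Chrm2. On the same scale Rgs5 had 143 and 116 CPM in Cre-positive mice, against 157, 177 and 143 CPM in Cre-negative mice, and Adcy5 had 9.71 and 8.45 against 9.34, 11.0 and 10.5. Adcy5 and Rgs5 both overlapped on this scale, Rgs5 narrowly, with 143.4 in Cre-positive 1 and 143.23 in Cre-negative 3. Mylk alone gave 654 and 872 of the 1275 and 1545 CPM of marker sum in the Cre-positive pair. In the 3 controls it gave 1879, 1006 and 867 of 3898, 1963 and 1516 CPM. All these ratios, that of Chrm2 included, therefore lean on 1 marker, and they were not taken without it. With the log2 sum of the markers as a covariate, an alternative added after seeing the data, the log2 fold change was -0.87 ± 0.30 for Chrm2, -0.30 ± 0.33 for Rgs5, -0.30 ± 0.32 for Adcy5 and -0.06 for Gnao1, while it was 0.64 ± 0.32 for Slc44a1 and -1.45 for Chrna3. None of the 30 genes was called in that fit, which leaves fewer degrees of freedom, and 19 of the 30 were negative in it.

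**Figure D5:**
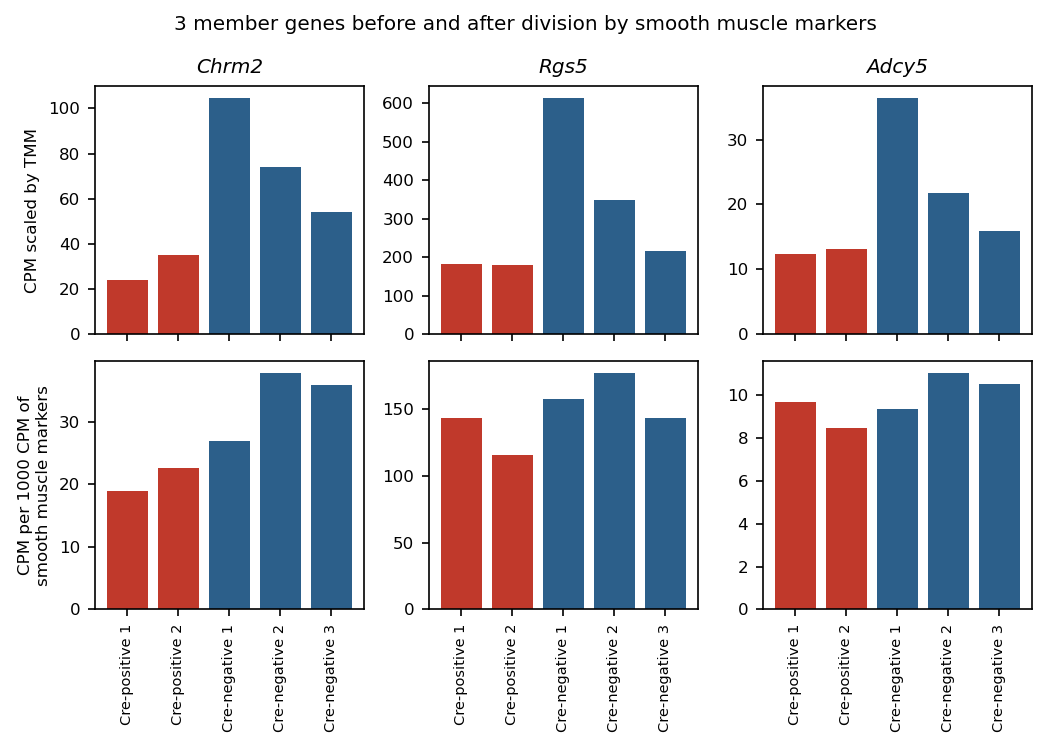
Chrm2, Rgs5 and Adcy5 in each library (Cre-positive red, Cre-negative blue), as CPM scaled by TMM in the upper row and as CPM per 1000 CPM of 10 smooth muscle markers in the lower row, with axes from 0. The groups are apart in all 3 upper panels. In the lower row they stay apart for Chrm2, overlap for Adcy5 and overlap narrowly for Rgs5. Mylk makes up much of the marker sum.

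Other genes of the pathway, from a list of 78 that excludes the genes above, showed little. A row was found for 55, and 44 passed the filter. edgeR called 0 of the 44 higher and 0 lower, where it called 0.00% of all genes tested in each direction. DESeq2 and limma-voom called 0 of the 44, where over all genes DESeq2 called 12 higher and 7 lower and limma-voom called 0. At an unadjusted edgeR p under 0.05 there were 0 of the 44 higher and 2 lower, against 1.60% and 1.78% of all genes. The groups did not overlap for 1 higher and 4 lower, against 7.89% and 10.2% of all genes. The log2 fold change was positive for 21 and negative for 23, against 45.5% positive over all genes, with a median of -0.05. The 2 with an unadjusted p under 0.05 were ryanodine receptor genes, which encode calcium release channels of the sarcoplasmic reticulum. Ryr2 had 8.13 and 8.70 CPM in the Cre-positive pair, against 25.2, 14.5 and 12.1 CPM in the 3 controls (log2 fold change -1.02 ± 0.38; unadjusted p = 0.0317; edgeR adjusted p = 0.977). Ryr3 had 2.32 and 2.95 CPM in Cre-positive mice, against 10.8, 7.04 and 3.91 CPM in Cre-negative mice (-1.43 ± 0.52; unadjusted p = 0.0278), and its counts were not whole in all 5 libraries. Neither gene overlapped between the groups. Among the G protein beta subunit genes, Gnb1, Gnb2, Gnb4 and Gnb5 all overlapped, with log2 fold changes from -0.13 to 0.15. The tested receptor kinase genes Grk2, Grk3, Grk5 and Grk6, whose products mark active receptors for arrestin, overlapped too, from -0.36 to 0.43.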

How the data were processed

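Total RNA from small intestine was sequenced after ribosomal RNA depletion, 1 library per mouse, per the labels' protocols. The authors deposited 1 table of estimated counts per gene. The submitters' processing notes name Partek and mm10, and how reads were aligned and assigned to genes is not given in these sources. Per library, 19.6% to 21.7% of values were not whole (tolerance 0.005), and 6 of the 37 genes had at least 1 such value. Counts were rounded, scaled by TMM and tested with edgeR 4.0.16 (R 4.3.3; filterByExpr, minimum count 10; robust quasi-likelihood fit on genotype; Benjamini-Hochberg adjustment). The filter needs enough counts in 2 libraries. SEs are the log2 fold change over the square root of F. Biological variation (coefficient 33.1%) was estimated on 3 residual degrees of freedom. DESeq2 1.42.0 and limma 3.58.1 were alternatives. Ratios between single libraries add 0.5 to each count. P-values measure spread between these mice; no replicate numbers pair them.

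Coordinates and exon lengths came from GENCODE M21 on GRCm38, which mm10 denotes. All 44 symbols matched. Of the 37 genes, 13 have exons overlapped on the opposite strand and 2 on the same strand, so their reads may be shared. Promoters came from RefSeq, where 37 of the 44 symbols matched. The members, lists and motif were chosen with earlier results of these data known. Text names all members, pathway genes with an unadjusted p under 0.05 and markers; the named Slc44a, Gnb and Grk genes were chosen after their values were seen. The fits were tested on simulated data. A lymphocyte marker is not reported here and was left out of the sum.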

Additional observations from a re-analysis of the deposited data

How the results depend on the processing

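None of the 30 genes tested was called by RLE scaling, no scaling factor, DESeq2, limma-voom, no filter, a filter of 1 CPM in 3 libraries, the smooth muscle covariate or leaving out any mouse. Over all genes DESeq2 called 12 higher and 7 lower, and leaving out a mouse gave 0 to 58 higher (58 without Cre-positive 2) and 0 lower; the cause was not tested. A fit that leaves out a Cre-positive mouse assumes that the lone one varies like the others. Chrm4 was not tested under the 1 CPM filter or without Cre-negative 2, nor Ache without Cre-negative 2. No paired analysis was possible because the labels give no shared replicate numbers. Leaving out each mouse moved 14 of 30 log2 fold changes across 0: Chrm3 -0.42 to 0.33, Chrm4 -1.15 to 0.52, Ache -0.98 to 0.45, Bche -2.68 to 0.27, Gna11 -0.45 to 0.28, Plcb1 -0.29 to 0.71, Plcb3 -0.71 to 0.067, Adcy7 -0.70 to 0.88, Adcy9 -0.69 to 0.12, Rgs4 -0.77 to 0.54, Arrb1 -0.67 to 0.52, Itpr1 -0.37 to 0.25, Itpr2 -0.51 to 0.17 and Itpr3 -0.25 to 0.16. Rgs4 was 0.0100 with RLE, 0.0094 with DESeq2, 0.031 with no scaling factor, 0.019 with no filter and 0.025 with the 1 CPM filter, and Arrb1 was -0.090 with limma-voom. With the smooth muscle covariate Rgs4 was 0.54, Itpr1 0.41, Itpr2 0.36 and Itpr3 0.012. Shallow libraries limit Chrm1, Chrm4, Chat and the nicotinic genes, at 1 to 29 counts in a library.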
